A study of Mus musculus with 3 samples.

Results

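The immunoglobulin light chain loci of mouse pro-B cells were examined as 3450 bins of 1 kb, in maps of 3 histone modification states. The kappa locus took 3205 bins of chromosome 6 (67495001 to 70700000, build mm9) and the lambda locus 245 bins of chromosome 16 (19020001 to 19265000). Bins were chosen by position alone. Kappa was divided at 70665001 into a V part of 3170 bins, which holds the variable segments, and a J-C part of 35 bins, in which the joining segments, the intronic enhancer and the constant segment lie. Of the 3450 bins, 2735 held a read in any library, of 2285014 such bins in the genome.

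The libraries were made by chromatin immunoprecipitation and sequencing from RAG2-/- pro-B cells transformed with Abelson virus, of the strain given in the labels as C57BL/7 and grown on plastic in RPMI1640 with serum. There was 1 library per antibody. One antibody was raised against H3R2me2s (symmetric dimethylation of arginine 2 of histone H3). Another was raised against H3R2me2sK4me3, which adds trimethylation of lysine 4 and is called the combined mark here, and a commercial one against H3K4me3 alone. Every library came from a RAG2-/- line, so no sample with an active recombinase was compared.

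A light chain gene is assembled when the RAG1 and RAG2 recombinase joins a V segment to a J segment, which is then spliced to the C segment. Heavy chain genes are usually assembled first, in pro-B cells, and kappa mostly at the later pre-B stage. H3K4me3 marks active promoters, and a domain of RAG2 binds histone H3 tails that carry it. A line without RAG2 keeps its V, J and C segments apart. RefSeq's annotation of GRCm38.p6 lists 162 kappa V segments, of which 60 are pseudogenes, with 5 J segments and 1 C segment. It lists 3 V segments for lambda. That assembly differs from mm9, so only names and gene order were taken from it and no bin was assigned to a segment.

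The H3R2me2s library held 6923765 reads, that of the combined mark 7128852 and that of H3K4me3 13898471. Levels are given as multiples of background, which was 2.35, 1.86 and 2.98 reads per bin in that order. Background is the mean of bins that hold a read in any library and lie over 5 kb from an enriched bin. A level over all bins of a part therefore counts bins with no read, which background leaves out. A bin was called enriched from 15, 16 and 25 reads, or 6.37, 8.60 and 8.39 times background. In multiples of background the limit was thus lowest for H3R2me2s, so counts of calls are not equal measures between marks. The region with most H3R2me2s reads in the genome, on chromosome 2, held 3403 H3R2me2s reads and 3328 combined-mark reads but 432 H3K4me3 reads, and the labels do not say whether the libraries came from 1 culture. Intervals are exact, at 95%, and describe counting error alone, because there was 1 library per antibody. Reads amplified by PCR without molecular identifiers are not separate molecules, so the intervals can be too narrow even for counting error. No test between antibodies was made, no difference has a replicate check, and local bias was not corrected with an input library. Whether the cells carry pro-B markers was not checked, for want of gene positions on mm9.

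The J-C part of kappa stood about 3 to 4 times above background in every library, as a low and wide elevation with no strong peak. It held 258 H3R2me2s reads, 195 combined-mark reads and 400 H3K4me3 reads. The level of H3R2me2s was 3.13 times background (2.76 to 3.54), that of the combined mark 2.99 (2.59 to 3.44) and that of H3K4me3 3.84 (3.47 to 4.23). H3R2me2s was at 2 times background or more in 65.7% of the 35 bins, and both other marks in 80.0%. Genome-wide, H3R2me2s reached that level in 19.1% of bins, the combined mark in 20.4% and H3K4me3 in 19.0%.

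**Figure D1:**
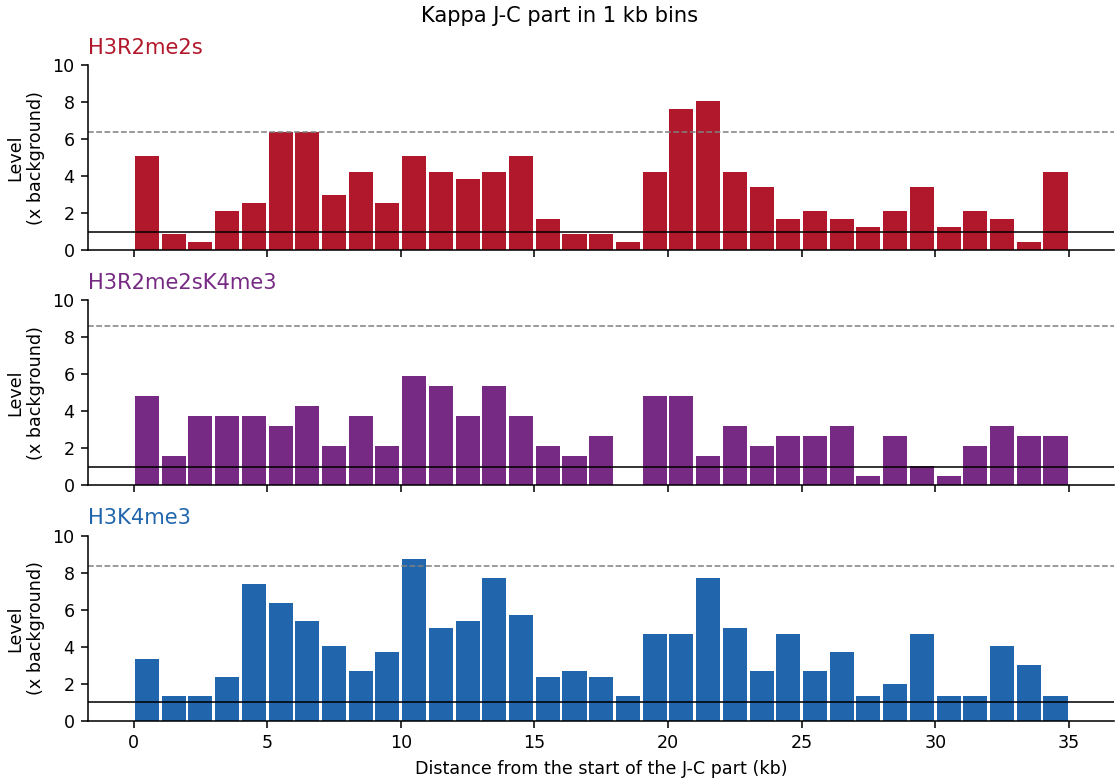
Level of each mark (y axis, multiples of background) in the 35 bins of the kappa J-C part, by distance in kb from its start (x axis). The solid line is background and the dashed line the calling limit of that library, which differs between marks. Most bars lie between the lines, and 4 H3R2me2s bins and 1 H3K4me3 bin reach the limit.

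Few J-C bins were called in number, but for H3R2me2s their share was above that of the genome. H3R2me2s was called in 4 of the 35 bins (11.4%), the combined mark in 0 and H3K4me3 in 1 (2.86%). The genome-wide shares were 1.23%, 1.45% and 2.45%. The bin at 70670001 to 70671000 held 15 H3R2me2s reads, 6 of the combined mark and 19 of H3K4me3. The bin after it, to 70672000, held 15, 8 and 16. Both stood exactly at the H3R2me2s limit. The bins at 70685001 and 70686001 were the highest for H3R2me2s, with 18 and 19 reads. The combined mark had 9 and 3 reads there, and H3K4me3 14 and 23. The only bin called for H3K4me3, 70675001 to 70676000, held 12 H3R2me2s reads, 11 of the combined mark and 26 of H3K4me3. It was also the highest J-C bin of the combined mark. No J-C bin was therefore called for both H3R2me2s and H3K4me3. In the genome, 26209 of 28193 H3R2me2s bins were also called for H3K4me3. The 4 H3R2me2s bins held 14 to 23 H3K4me3 reads, where the limit was 25. The bin at 70686001 stood at 7.72 times background for H3K4me3 and was not called, where 6.37 sufficed for H3R2me2s. The H3K4me3 bin held 12 H3R2me2s reads, where the limit was 15. With so few calls, no conclusion is drawn from the lack of overlap. With 1 read counted per position and strand, the counts became 2 for H3R2me2s and 3 for H3K4me3.

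In steps of 5 kb the J-C part was uneven, with a lower step between higher ones for H3R2me2s and H3K4me3. In the first step, from 70665001, H3R2me2s was at 2.21, the combined mark at 3.55 and H3K4me3 at 3.16. From 70670001 to 70675000 they were at 4.50, 3.12 and 4.43. From 70675001 to 70680000 the level of H3R2me2s was 4.50 (3.37 to 5.89), that of the combined mark 4.84 (3.53 to 6.47) and that of H3K4me3 6.51 (5.28 to 7.95). The next step, to 70685000, had 1.61 (0.97 to 2.52), 2.26 (1.40 to 3.45) and 2.69 (1.92 to 3.66) in the same order. All 3 marks were lower in it. From 70685001 to 70690000 H3R2me2s was again at 5.01 (3.82 to 6.46) and H3K4me3 at 4.97 (3.90 to 6.24). The combined mark there was at 2.90 (1.91 to 4.22), with 27 reads beside 59 of H3R2me2s. Its interval overlapped that of the lower step, so it had no clear second rise. From 70690001 to 70700000 the marks lay between 1.95 and 2.89.

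The elevation did not end at the limits of the J-C part. In the 5 kb before it, from 70660001, the level of H3R2me2s was 3.14, that of the combined mark 2.36 and that of H3K4me3 3.09. In the 5 kb after it they were 3.31, 3.12 and 2.48. The next step, from 70705001, was a dip, at 1.10, 1.18 and 0.806, with 2 bins without a read. Beyond it the levels were 1.61, 2.69 and 1.68 in the step from 70710001, and 2.89, 1.83 and 1.34 in the step from 70715001. In the step from 70735001, which takes in the first bin of a strong flank region described below, they were 2.55, 3.55 and 4.30. In the steps from 70720001 to 70735000 H3R2me2s lay between 1.19 and 2.12, the combined mark between 1.72 and 1.93 and H3K4me3 between 1.07 and 1.75. From 70705001 to 70735000 H3K4me3 thus stayed below its lowest J-C step, at 2.22. H3R2me2s and the combined mark reached 2.89 and 2.69 there, within the range of their J-C steps. On the V side the elevation met a short region at 70659001 to 70660000, described below. Farther into the V part, from 70605001 to 70655000, levels were uneven. H3K4me3 was at 3.63 (2.72 to 4.73) in the step from 70620001 and 2.75 (1.98 to 3.73) in the step from 70650001. In the step from 70640001 it was at 0.470, with 0 reads of both other marks. Over these steps H3R2me2s reached 1.78 at most and the combined mark 1.61. The stretch from 70570001 to 70605000 was nearly without reads, with no level over 0.43.

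H3R2me2s stood close to the combined mark in the J-C part, and the marks differed less there than at H3K4me3 regions. Scaled to background, H3R2me2s over the combined mark gave a ratio of 1.05 (0.865 to 1.27). The ratio to H3K4me3 was 0.816 (0.695 to 0.957) for H3R2me2s and 0.780 (0.654 to 0.928) for the combined mark. Scaled to all mapped reads (CPM), these ratios were 1.36, 1.29 and 0.950. Genome-wide background itself had CPM ratios of 1.30, 1.59 and 1.22 in that order. Over 18406 regions called for H3K4me3 in the genome, the median CPM ratios were 0.510, 0.409 and 0.713 among those with at least 30 reads in both libraries together. Those regions were selected by their H3K4me3 reads, which by itself favours low ratios to H3K4me3. The J-C part was chosen by position, so the comparison is a description only. The J-C value was nearest to that of background for H3R2me2s over the combined mark, and lay between background and called regions for the ratios to H3K4me3. Scaled to background, H3R2me2s over the combined mark was at 0.910 in the V part and 0.913 in lambda. The ratio to H3K4me3 was 0.691 and 0.649 there for H3R2me2s, and 0.760 and 0.711 for the combined mark. Each of these was below the J-C value, with intervals that overlapped those of the J-C part. For H3R2me2s to H3K4me3 the overlap was narrow, with 0.671 to 0.712 in the V part and 0.594 to 0.709 in lambda. Overlap of intervals is not a test, and no difference between the parts was tested. In the J-C part the direction of H3R2me2s over H3K4me3 turned with the scaling, from above 1 in CPM (1.10 to 1.52) to below 1 against background. The antibodies have no common calibration here.

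Set beside windows of its own size, the J-C part was among the higher ones for H3R2me2s. Of 70175 windows of 35 kb in the genome with reads in at least 18 bins, 4.84% had an H3R2me2s level at or above that of the J-C part. The share was 10.7% for the combined mark and 11.9% for H3K4me3. Of 84 such windows in the V part, 0 reached the J-C level of H3R2me2s, 2 that of the combined mark and 6 that of H3K4me3. The highest V windows stood at 3.05 times background (H3R2me2s), 3.64 (combined mark) and 5.38 (H3K4me3). For H3R2me2s that was just below the J-C level of 3.13. Window levels count bins without a read, which made up 21.2% of the V part and 0 of the 35 J-C bins. Windows without such bins were not compared. These shares describe the libraries and are not a test.

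**Figure D2:**
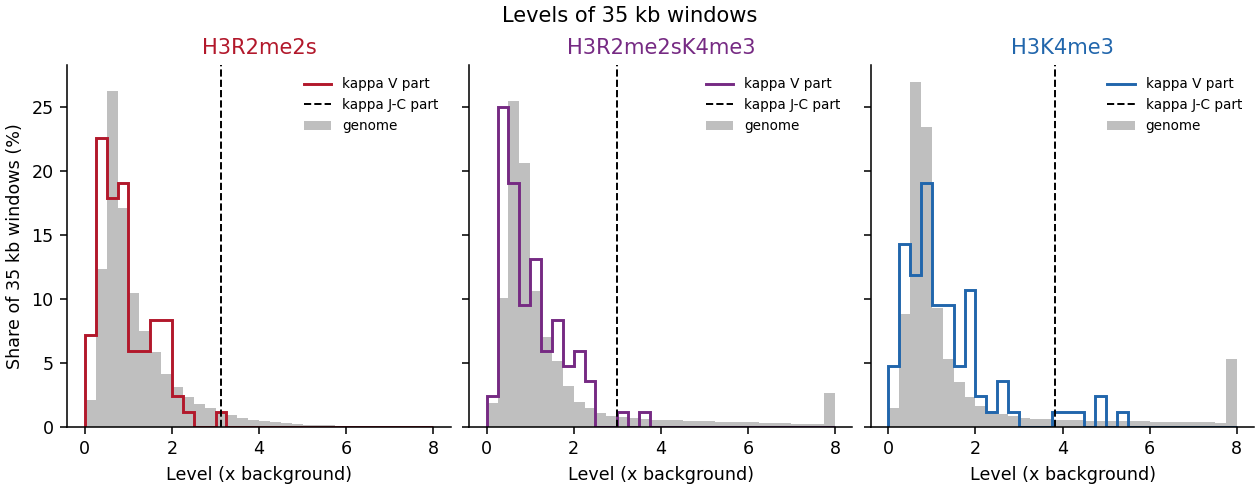
Share of 35 kb windows (y axis, percent) by level (x axis, multiples of background; the last bar holds all windows at 7.75 or more) for 70175 genome windows in grey and 84 windows of the kappa V part as a coloured line. The dashed line is the J-C part, at 3.13, 2.99 and 3.84, to the right of nearly all V windows for H3R2me2s and the combined mark and of most for H3K4me3. Levels count bins without a read.

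A strong region of another chromosome gives a scale. On chromosome 12 the region with most combined-mark reads was 114658001 to 114670000. General knowledge of mm9, not an annotation used here, places it in the immunoglobulin heavy chain locus. It held 1262 H3R2me2s reads, 3025 combined-mark reads and 4417 H3K4me3 reads in 12 kb. Its reads per bin were 14.3 times those of the kappa J-C part for H3R2me2s (12.5 to 16.4). The combined mark had a factor of 45.2 (39.1 to 52.6), and H3K4me3 one of 32.2 (29.1 to 35.8). That region was chosen for its reads, so these factors are descriptions.

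Most of the V part lay near background. It held 6680 H3R2me2s reads, 5802 combined-mark reads and 12221 H3K4me3 reads. Over all 3170 bins the level of H3R2me2s was 0.895 (0.874 to 0.917), that of the combined mark 0.983 (0.958 to 1.01) and that of H3K4me3 1.29 (1.27 to 1.32). Of these bins, 673 (21.2%) had no read in any library, against 9.09% of bins on chromosome 6. At background depth counting alone would leave 0.0751% of bins empty. Some V segments are near copies of each other, but which reads the authors' mapping discarded is not given in the sources used here. Background was taken over bins with a read. Over the 2497 such bins of the V part the levels were 1.14 (1.11 to 1.16), 1.25 (1.22 to 1.28) and 1.64 (1.61 to 1.67). H3R2me2s and the combined mark thus passed from below background to above it.

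Away from enriched bins, by more than 5 kb, H3R2me2s in the V part was at 1.02 times background (0.988 to 1.04), the combined mark at 1.06 (1.03 to 1.09) and H3K4me3 at 1.25 (1.22 to 1.28). Chromosome 6 as a whole had 0.982, 0.979 and 0.972 in such bins. The J-C part had 3.08 times the reads per bin of these V bins in the H3R2me2s library (2.71 to 3.49), 2.83 times in that of the combined mark (2.44 to 3.26) and 3.08 times in that of H3K4me3 (2.78 to 3.40). The 3 intervals overlap. These factors include the enriched bins of the J-C part. In the 8 J-C bins outside the 5 kb around enriched ones, H3R2me2s was at 2.07 (1.47 to 2.83), the combined mark at 1.95 (1.30 to 2.80) and H3K4me3 at 2.39 (1.81 to 3.10). Against the same kind of V bins the factors were then 2.04 (1.45 to 2.79), 1.84 (1.23 to 2.64) and 1.92 (1.45 to 2.49).

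The V part was not even along its length. In stretches of 500 kb counted from the J-C part, all 3 marks were highest 500 to 1000 kb away and again 1500 to 2500 kb away, with lower levels between and on both sides. At 500 to 1000 kb H3R2me2s was at 1.63 in bins with a read (1.55 to 1.71), the combined mark at 1.81 (1.71 to 1.90) and H3K4me3 at 2.44 (2.35 to 2.52). In the nearest 500 kb they were 0.825, 0.890 and 1.25, and at 1000 to 1500 kb 0.689, 0.863 and 1.20. The stretch nearest to the J-C part was therefore not the most marked one. At 2000 to 2500 kb the levels were 1.43, 1.59 and 1.90. Beyond 2500 kb, no mark was above background, and from 2500 to 3000 kb the levels were 0.830, 0.869 and 0.945.

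Away from called bins the stretches still differed, but in another order. At 500 to 1000 kb the levels fell to 1.33, 1.31 and 1.38 over 317 such bins, below those at 2000 to 2500 kb in each library. At 2000 to 2500 kb, where 398 of 413 bins with a read lay outside the 5 kb around enriched bins, H3R2me2s in those bins was at 1.39 (1.32 to 1.47), the combined mark at 1.46 (1.38 to 1.55) and H3K4me3 at 1.61 (1.54 to 1.68). H3K4me3 was highest at 1500 to 2000 kb, at 1.72 (1.65 to 1.81). At 1000 to 1500 kb the levels were 0.647, 0.711 and 0.923. The higher and lower stretches were thus present in all 3 libraries, which share the same mappable sequence. The part that mappability or base composition has in it was not tested.

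Windows of 100 kb placed the extremes. The highest window of H3R2me2s and of the combined mark was 68795001 to 68895000, at 2.42 (2.22 to 2.64) and 2.60 (2.36 to 2.85). The highest for H3K4me3 was 69995001 to 70095000, at 4.08 (3.82 to 4.35), with 10 enriched bins. Away from its enriched bins that window was at 1.06, so its H3K4me3 lay in discrete regions. The lowest window was 70295001 to 70395000 for H3R2me2s, at 0.438 (0.338 to 0.559), and for H3K4me3, at 0.538 (0.438 to 0.654). For the combined mark it was 67595001 to 67695000, at 0.523 (0.410 to 0.657). Over the 31 full windows the medians were 0.953, 1.02 and 1.24.

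**Figure D3:**
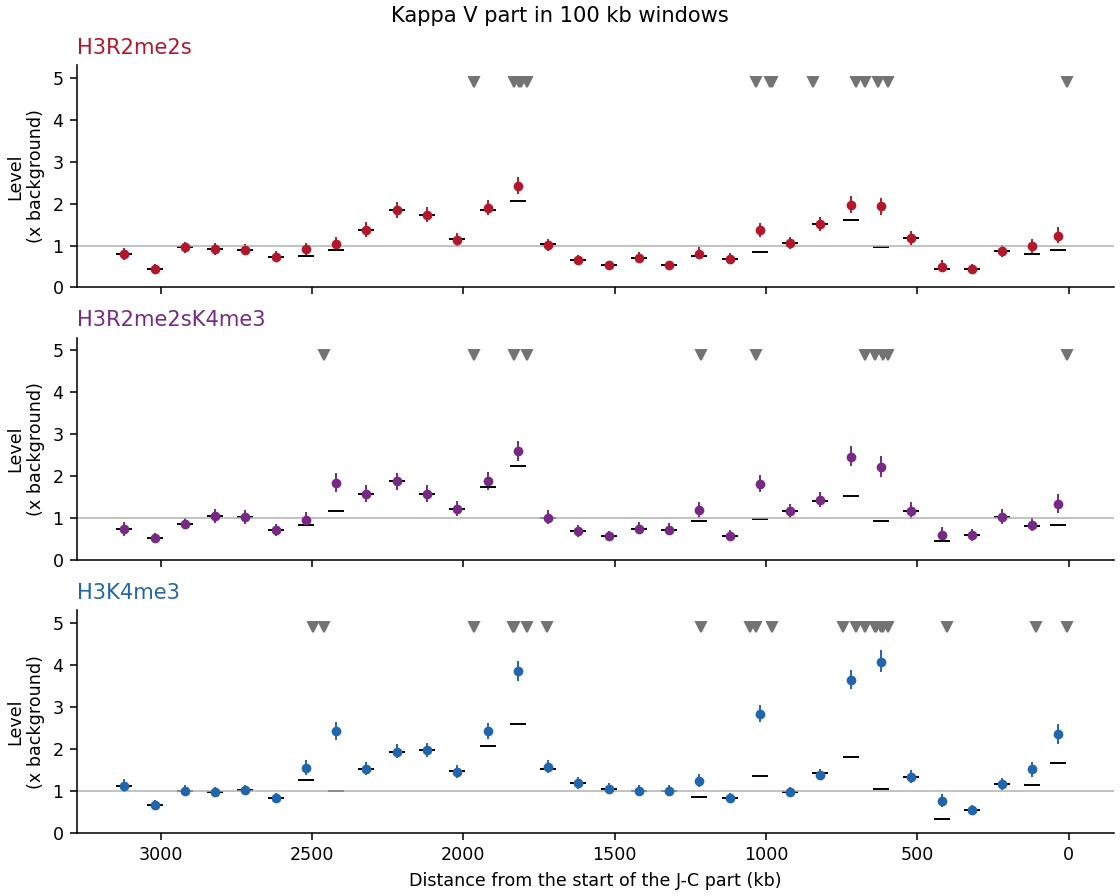
Level in bins with a read (y axis, multiples of background) in 100 kb windows of the kappa V part, by distance in kb from the start of the J-C part (x axis, decreasing to the right); the last window has 70 kb. Points have 95% counting intervals, black dashes are the level outside the 5 kb around enriched bins, and triangles mark enriched regions of that library; all 3 marks are raised in the window 68795001 to 68895000 and in the stretch 500 to 1000 kb away.

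Discrete enriched regions were scattered over the V part, with H3K4me3 the most often called. The V part had 38 enriched bins for H3K4me3, or 1.52% of its bins with a read, beside 2.45% over the genome. H3R2me2s and the combined mark had 15 each, or 0.601%, beside 1.23% and 1.45%. All 3 shares lay below the genome-wide ones. Bins no more than 1 kb apart formed 27 regions with a median width of 1 kb and a maximum of 4 kb. H3K4me3 was called in 22 of them, H3R2me2s in 14 and the combined mark in 11. All marks were called in 7 regions, H3K4me3 alone in 9 and H3R2me2s alone in 5. H3K4me3 was called together with the combined mark but not H3R2me2s in 4, and with H3R2me2s but not the combined mark in 2.

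The regions were unevenly placed. The 500 kb from 500 to 1000 kb away from the J-C part held 12 of the 27, and 9 of the 22 called for H3K4me3. The nearest 500 kb held 3. The farthest region lay 2495 kb away. The 674 kb beyond it, at the end of the V part farthest from J, held 0 regions, and the highest bin there had 12 H3R2me2s reads, 13 combined-mark reads and 22 H3K4me3 reads, all below the limits.

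Values of the 10 V regions with most reads are given next, in the order H3R2me2s, combined mark and H3K4me3. The strongest, at 69989001 to 69993000, held 48, 111 and 366 reads, or 5.10, 14.9 and 30.7 times background. The region at 68202001 to 68205000 held 31, 85 and 282 reads, or 4.39, 15.2 and 31.6 times background. H3R2me2s was called in 2 of the 4 bins of the first and in 0 of the 3 bins of the second. The CPM ratio of H3R2me2s to H3K4me3 was 0.263 (0.191 to 0.356) in the first and 0.221 (0.147 to 0.320) in the second.

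A further pair had like H3R2me2s levels. The region at 70051001 to 70055000 held 36, 54 and 207 reads, and the one at 69631001 to 69634000 held 27, 68 and 183. H3R2me2s was at 3.82 times background in each, while the combined mark was at 7.25 (5.45 to 9.46) in the first and 12.2 (9.46 to 15.4) in the second. The CPM ratio of the combined mark to H3K4me3 was 0.509 (0.370 to 0.689) and 0.724 (0.540 to 0.962), with overlapping intervals. A pair of neighbours in the stretch 1500 to 2000 kb away, at 68833001 to 68835000 and 68876001 to 68878000, held 36, 45 and 138 reads and 20, 24 and 123 reads. H3K4me3 was alike in them, at 23.2 (19.5 to 27.4) and 20.6 (17.2 to 24.6) times background. H3R2me2s was at 7.64 (5.35 to 10.6) in one and 4.25 (2.59 to 6.56) in the other, with overlapping intervals.

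The region at 70023001 to 70026000 held 22, 28 and 149 reads and had the lowest ratio of the combined mark to H3K4me3 of the 10, at 0.366 (0.235 to 0.551). The one at 68699001 to 68701000 held 33, 32 and 105 reads and had the highest ratio of H3R2me2s to H3K4me3 of the 10, at 0.631 (0.413 to 0.941). The single bin at 70066001 to 70067000 held 21, 25 and 92 reads. The single bin at 70659001 to 70660000, which ends 5 kb before the J-C part, held 19, 29 and 90 reads, or 8.07, 15.6 and 30.2 times background. All marks were called in it, so the V region nearest to J was a strong and narrow one. Of its 90 H3K4me3 reads, 75 had distinct positions and strands, and 46 were on the plus strand and 44 on the minus strand.

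**Figure D4:**
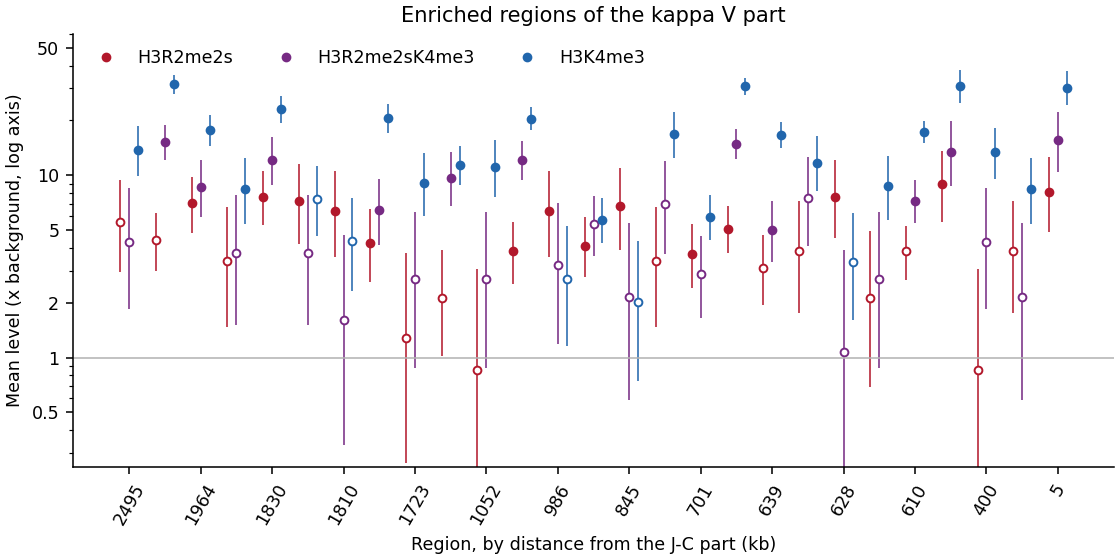
Mean level (y axis, multiples of background, log scale) of each mark in the 27 enriched regions of the kappa V part, ordered along the chromosome and labelled at every other region by distance in kb from the J-C part (x axis). Filled points were called in that library, open points were not, and lines are 95% counting intervals, clipped at the bottom; H3K4me3 is the highest mark in 23 of the 27 regions and H3R2me2s in 4, all of them called for H3R2me2s alone.

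At the strongest H3K4me3 bins of the V part, H3R2me2s and the combined mark were lower than in genome bins with as many H3K4me3 reads. In the 6 V bins with 100 to 199 H3K4me3 reads the CPM ratio of H3R2me2s to H3K4me3 was 0.249 (0.198 to 0.309), beside 0.365 (0.364 to 0.367) in 10968 genome bins of that class. The ratio of the combined mark was 0.581 (0.497 to 0.676) beside 0.778 (0.776 to 0.780). H3R2me2s was called in 3 of the 6 bins and in 89.9% of the genome bins, and the combined mark in 6 of 6 and in 99.7%. Within the class H3K4me3 itself was lower in the V bins, at 41.5 times background (38.6 to 44.6) beside 48.1. The 6 bins lie in 4 regions, and intervals leave out the spread between bins.

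In weaker bins the V part lay closer to the genome. In 9 V bins with 50 to 99 H3K4me3 reads the H3R2me2s ratio was 0.390 (0.320 to 0.472) beside 0.387, and the ratio of the combined mark 0.543 (0.458 to 0.640) beside 0.631. In 23 V bins with 25 to 49 reads they were 0.409 (0.342 to 0.486) beside 0.511, and 0.548 (0.469 to 0.637) beside 0.580. H3R2me2s was called in 5 of the 9 bins and 0 of the 23, where the genome shares of these classes were 38.3% and 8.27%. Over the 22 V regions called for H3K4me3, the median CPM ratio was 0.368 for H3R2me2s, where 18265 genome regions had 0.409. For the combined mark it was 0.546 over 21 V regions, where 18258 genome regions had 0.713.

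The V bins called for H3R2me2s alone were all close to the limit. They numbered 7 of the 15 H3R2me2s bins, or 46.7% (21.3 to 73.4), and in the J-C part 4 of 4, where the genome had 6.92% (6.63 to 7.23). Their counts ran from 15 to 18 reads in the V part and from 15 to 19 in the J-C part. H3K4me3 had 6 to 22 reads in these V bins and 14 to 23 in the J-C ones. Its median level was 3.36 times background in these V bins, 5.88 in the J-C ones and 4.03 in such genome bins. Of all 28193 H3R2me2s bins in the genome, 2645 held exactly 15 reads, beside 5 of 15 in the V part and 2 of 4 in the J-C part. The shares called alone thus set weak bins beside genome bins of all strengths. The H3R2me2s limit was also lower than those of the other marks in multiples of background. No genome share was taken for bins of 15 to 19 reads. Around the H3R2me2s limit, 5 V bins held exactly 15 reads, 4 held 14 and 7 held 13. Around the H3K4me3 limit, 2 held 25 reads, 0 held 24 and 6 held 23. The highest of the V bins, at 70036001 to 70037000, held 18 H3R2me2s reads, of which 17 were distinct, 2 of the combined mark and 10 of H3K4me3. With 1 read counted per position and strand, the V part had 9 H3R2me2s bins in place of 15.

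The lambda locus lay between the kappa V and J-C parts in level. Mouse lambda has few V segments, interspersed with its J and C segments, so it was not divided. It held 760 H3R2me2s reads, 658 combined-mark reads and 1481 H3K4me3 reads. The level of H3R2me2s was 1.32 times background (1.23 to 1.41), that of the combined mark 1.44 (1.34 to 1.56) and that of H3K4me3 2.03 (1.93 to 2.14). Without its 42 bins with no read the levels were 1.59, 1.74 and 2.45. Outside the 5 kb around enriched bins they were still 1.43 (1.32 to 1.56), 1.54 (1.41 to 1.68) and 1.96 (1.84 to 2.08), above the kappa V part in each library and above chromosome 16, at 1.05, 1.06 and 1.06.

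Lambda had 2 enriched regions of 3 kb each. The region at 19025001 to 19028000 held 26 H3R2me2s reads, 34 of the combined mark and 104 of H3K4me3, or 3.68, 6.09 and 11.6 times background. The region at 19178001 to 19181000 held 47, 34 and 119 reads, or 6.65, 6.09 and 13.3 times background. H3K4me3 was called in all 6 bins of both regions. H3R2me2s was called only in the bin at 19179001 to 19180000, with 25 reads beside 11 of the combined mark and 53 of H3K4me3. The combined mark was called in the bins at 19027001 and 19178001, with 16 reads in each, exactly at its limit. As shares of bins with a read, H3R2me2s calls came to 0.493%, combined-mark calls to 0.985% and H3K4me3 calls to 2.96%, beside 1.23%, 1.45% and 2.45% over the genome.

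Lambda was uneven too. In steps of 35 kb, H3K4me3 ranged from 1.31 (1.03 to 1.64) in the step from 19090001 to 4.32 (3.92 to 4.76) in the step from 19020001. H3R2me2s was lowest in the same step, at 0.984 (0.715 to 1.32), and ranged up to 1.94 (1.65 to 2.27) in the step from 19230001, which held 0 enriched bins. In that last step the marks were alike, at 1.94, 1.84 and 1.95 times background.

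The flanks had the strong regions that the loci lacked. In the 500 kb beyond the C side of kappa, where GRCm38.p6 lists Rpia (ribose 5-phosphate isomerase) as the next protein-coding gene, the region at 70739001 to 70744000 held 294 H3R2me2s reads, 560 of the combined mark and 1189 of H3K4me3. The combined mark was at 60.2 and H3K4me3 at 79.8 times background there, 39 kb from the end of the J-C part. On the V side the region at 67215001 to 67221000 held 384, 902 and 1905 reads. The strongest light chain region held 366 H3K4me3 reads. Per Mb of bins with a read, enriched regions numbered 14.5 in the V-side flank and 20.3 in the C-side flank, beside 10.8 in the V part and 8.64 over the genome. By that count the V part was not poor in regions. Reads in enriched bins made up 17.8% of H3K4me3 reads in the V part and 52.4% and 60.3% in its flanks, where the genome had 45.1%.

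Away from enriched bins the order of the marks differed between the loci and the kappa flanks. H3R2me2s was at 1.46 (1.39 to 1.54) in the V-side flank and 1.33 (1.26 to 1.41) in the C-side flank, higher than H3K4me3, at 1.25 (1.19 to 1.32) and 1.08 (1.02 to 1.14). In the V part H3R2me2s was at 1.02 and H3K4me3 at 1.25. On chromosome 16 the 245 kb below lambda had 4 enriched regions, and the 245 kb above it, which in GRCm38.p6 begins an olfactory receptor cluster, had 0. The flank with 0 regions stood at 1.15 (1.05 to 1.25), 1.16 (1.06 to 1.28) and 1.11 (1.03 to 1.20) in bins with a read, below lambda in all 3 libraries.

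**Figure D5:**
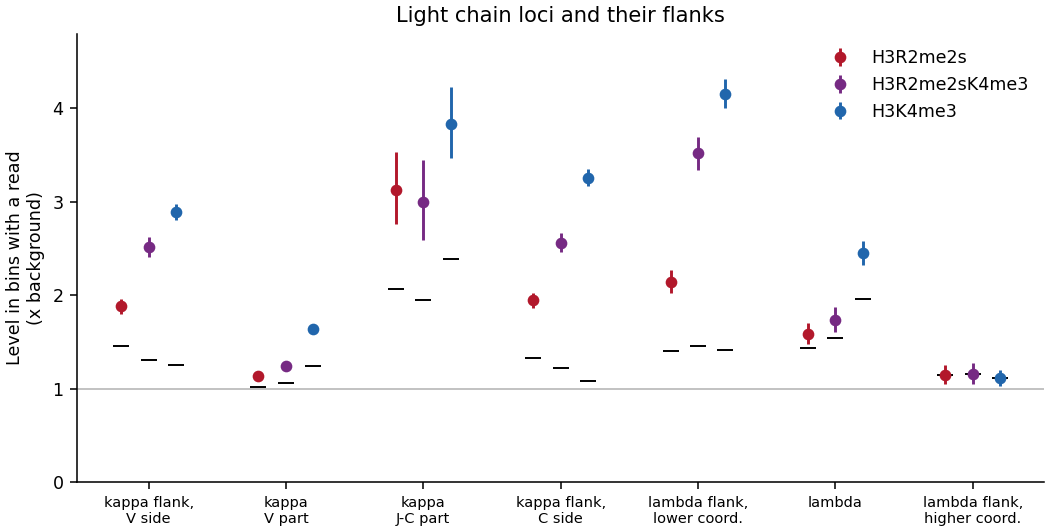
Level in bins with a read (y axis, multiples of background) of each mark in the kappa and lambda loci and in their flanks (x axis; 500 kb for kappa, 245 kb for lambda). Points have 95% counting intervals and black dashes are levels outside the 5 kb around enriched bins; the J-C part is the highest of the light chain parts for each mark, and its dashes rest on 8 bins.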

How the data were processed

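The 3 ChIP-seq libraries of mouse pro-B cells were used, 1 per antibody and grouped by the antibody in the labels. Per the labels' protocols, nuclei were sonicated, DNA was amplified for 15 cycles and gel-isolated fragments had 100 to 500 bp. The authors deposited 1 mapped read of 39 bases per line with no scaling, so reads per bin are raw counts. The build was mm9, per the submitters' processing notes; the aligner and the treatment of repeats are not given in the sources used here.

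Reads were shifted by 75 bp towards their 3-prime end and binned at 1 kb, with Python 3.11.15, numpy 2.4.6 and SciPy 1.17.1. A bin was called at 4 times the genome mean or more with a Poisson upper tail under 1e-06. Poisson intervals were used for reads, binomial (Clopper-Pearson) ones for ratios and shares. The rule was tested on simulated data. Alternatives changed the read shift, repeats, empty bins, background, limits, depth and the start of the J-C part. The regions named were all those of the J-C part and lambda, and the 10 with most reads in the V part; the 100 kb extremes and the chromosome 12 region followed the same written rule. Steps of 5, 35 and 500 kb, the classes of H3K4me3 reads and single bins near a limit were chosen after values were seen, and the loci and rules with earlier results of these data known. No mm9 genome was used, so no sequence is shown. Gene names come from RefSeq GRCm38.p6, other than the heavy chain label of the chromosome 12 region, which rests on general knowledge of mm9.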

Additional observations from a re-analysis of the deposited data

How the results depend on the processing

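Of 123 values recomputed under 10 alternatives, 97 moved by less than their interval (or 1.5 times for counts of bins), 24 moved more and 2 reversed, with both intervals on opposite sides of 1. H3R2me2s in the V part went from 0.895 to 1.14 times background without bins with no read, because the same reads were divided by fewer bins. H3R2me2s to H3K4me3 in the J-C part went from 1.29 by CPM to 0.816 scaled to background. That scaling divides by the CPM ratio of background itself, 1.59. What lies behind the empty bins and that ratio was not tested. Levels of the J-C part stayed within their intervals under all alternatives run on them. Leaving out bins with no read raised the V part to 1.14, 1.25 and 1.64 times background (H3R2me2s, combined mark, H3K4me3) and lambda to 1.59, 1.74 and 2.45; with background from the same chromosome H3K4me3 was at 1.33 in the V part and 1.92 in lambda. Scaled to background, the J-C ratios were 0.816 for H3R2me2s to H3K4me3, 0.780 for the combined mark to H3K4me3 and 1.05 for H3R2me2s to the combined mark. At 8 times the mean, enriched bins fell to 0, 8 and 15 in the V part, to 0 for H3R2me2s and H3K4me3 in the J-C part, and to 0 for the combined mark and 1 for H3K4me3 in lambda; at 2 times the mean the J-C part had 4 for H3K4me3. With 1 read per position and strand, H3R2me2s had 9 in the V part and 2 in the J-C part, where H3K4me3 had 3. With the J-C part starting 15 kb earlier, it had 1 for the combined mark and 2 for H3K4me3. With reads moved 150 bp, lambda had 2 for H3R2me2s and 0 for the combined mark. Counts of few bins thus rest on reads near a limit. No paired analysis was possible because there was 1 library per antibody, which also means that none could be omitted.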
